A study of Mus musculus with 27 samples.

Results

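Hba-x, Hba-a1, Hbb-y and Hbb-bh1 encode globin chains, the protein part of hemoglobin. They were followed through the differentiation of mouse embryonic stem cells (ESCs) into blood, with and without inhibition of the AP-1 transcription factors. The 4 genes were chosen by symbol, each matched to its array probe through the RefSeq accession printed on the array, out of 37208 genes or transcripts on the array, of which 20145 carried a symbol. All cells came from 1 ESC line, dnFOS, an A2lox line in which a Flag-tagged dominant-negative FOS peptide (dnFOS) sits in the Hprt locus and is switched on by doxycycline (DOX). The peptide pairs with JUN proteins and keeps them off DNA. All 13 groups therefore carried the cassette, and no cells without it were given DOX. ESCs were differentiated as embryoid bodies for 3.75 days, and cells carrying FLK1, a VEGF receptor of the hemangioblast, were purified on magnetic beads (FLK1+). They were then kept in blast culture without DOX or with 1 µg/ml DOX, and the whole culture was harvested for RNA at 5 h, the group called FLK1+ 5h, or at 24 h, the group called d1 BC. At day 2 of culture, smooth muscle cells (SM), early hemogenic endothelium (HE1, KIT+TIE2+CD41-), late hemogenic endothelium (HE2, KIT+TIE2+CD41+) and hematopoietic progenitors (HP, KIT+TIE2-CD41+) were sorted by flow cytometry. The gate for SM is not given in the sources used here. FLK1+ cells were measured without DOX alone, and the other 6 populations without and with DOX, on 27 one-colour Agilent arrays: 3 for untreated SM and 2 for every other group.

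Globin genes lie in an alpha and a beta cluster, each arranged roughly in the order in which its genes are used. Primitive red cells of the yolk sac are the first to make hemoglobin, from embryonic chains, and adult chains take over as definitive red cells appear. Erythroid factors such as GATA1, TAL1, KLF1 and NFE2 act at the promoters and at distant control regions of both clusters. Blast cultures of FLK1+ cells produce primitive red cells as well as hemogenic endothelium. In the alpha cluster, Hba-x encodes the embryonic zeta chain and Hba-a1 the adult alpha chain, which is already made in the embryo. In the beta cluster, Hbb-y encodes the embryonic epsilon-y chain and Hbb-bh1 the embryonic beta-h1 chain. Hba-x lies at chr11:32276600-32278116 and Hba-a1 at chr11:32283672-32284486 of the mouse assembly GRCm38.p6, while Hbb-y lies at chr7:103851754-103853207 and Hbb-bh1 at chr7:103841638-103843162.

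The 250 bases before the start of 3 of the genes and of Hba-a2, the other adult alpha gene, are shown from RefSeq on GRCm38.p6, because the factors that switch globin genes are known to act there. Each is written 5′ to 3′ on the strand of its gene, plus for the alpha genes and minus for Hbb-y. They cover chr11:32276350-32276599 for Hba-x, chr7:103853208-103853457 for Hbb-y, chr11:32283422-32283671 for Hba-a1 and chr11:32296242-32296491 for Hba-a2. Capitals mark matches to the sequence CACCC that KLF factors bind, with its longer form CCACCC. They also mark the CCAAT box, the 4 forms of the GATA sequence on either strand, and TATAAA or the variant spelled ATAAAA as TATA boxes.
Hba-x: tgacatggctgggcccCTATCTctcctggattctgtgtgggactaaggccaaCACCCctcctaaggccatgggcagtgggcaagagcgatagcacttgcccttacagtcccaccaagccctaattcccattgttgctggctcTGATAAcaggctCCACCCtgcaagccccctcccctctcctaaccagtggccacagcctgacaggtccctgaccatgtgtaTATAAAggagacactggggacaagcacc
Hbb-y: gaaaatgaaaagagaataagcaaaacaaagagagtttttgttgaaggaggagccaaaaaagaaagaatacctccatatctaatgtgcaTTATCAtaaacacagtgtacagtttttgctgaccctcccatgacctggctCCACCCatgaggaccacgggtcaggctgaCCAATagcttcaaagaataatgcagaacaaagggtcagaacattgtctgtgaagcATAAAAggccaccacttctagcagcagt
Hba-a1: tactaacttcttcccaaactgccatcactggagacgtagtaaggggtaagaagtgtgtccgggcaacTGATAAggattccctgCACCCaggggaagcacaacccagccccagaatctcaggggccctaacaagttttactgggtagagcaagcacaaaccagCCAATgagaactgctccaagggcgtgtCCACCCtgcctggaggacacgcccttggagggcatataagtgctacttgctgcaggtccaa
Hba-a2: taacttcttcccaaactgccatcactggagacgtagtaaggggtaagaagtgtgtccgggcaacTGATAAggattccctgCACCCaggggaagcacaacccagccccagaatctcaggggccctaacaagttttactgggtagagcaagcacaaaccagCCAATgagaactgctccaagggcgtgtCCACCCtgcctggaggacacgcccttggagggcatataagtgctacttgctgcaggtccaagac
The windows searched ran from 250 bases before to 50 bases after the start, on both strands, and the count of windows with CACCC includes its longer form. The longer form CCACCC was found at -96 in Hba-x, -112 in Hbb-y and -61 in Hba-a1, counting back from the gene start, and in 31.5% of 32851 RefSeq windows of the same length. CACCC stood alone at -198 in Hba-x and -167 in Hba-a1, and 57.5% of windows hold it. CCAAT stood at -83 in Hbb-y and -88 in Hba-a1, and 37.4% of windows hold it. TATAAA stood at -28 in Hba-x (13.6% of windows) and ATAAAA at -28 in Hbb-y (18.5% of windows). These letters are common, so the matches describe the sequence and do not mark a bound site. Of the 4 forms of the sequence that GATA factors bind, TGATAA stood at -108 in Hba-x, at -162 on the other strand in Hbb-y and at -183 in Hba-a1, and 9.05% of windows hold it. The form AGATAG stood at -234 on the other strand in Hba-x (8.95% of windows), while the form AGATAA (11.2% of windows) and the form TGATAG (7.29%) had no match in these windows. The AP-1 sequence TGAGTCA, held by 5.2% of windows, had none either. Hba-a1 and Hba-a2 shared an unbroken run of 247 of the 250 bases, whereas the longest run shared by Hba-a1 and Hba-x was 10 bases. As the adult alpha genes are near-identical in their transcripts too, the signal of the Hba-a1 probe may come in part from Hba-a2.

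Signals are given as log2 relative to the 75th percentile of the array, so that each unit is a 2-fold change and 0 is the level of the 75th percentile. A probe's level was compared only with that of the same probe on other arrays, since probes differ in how strongly they bind. Before scaling, the 75th percentile ran from 78.8 to 732 intensity units, from 48.0 to 89.7% of probes were well above background, and 0 spots were saturated. The 89.7% was that of SM replicate 2, against 60.2 and 56.8% on the other untreated SM arrays. The arrays lay on 5 slides, with FLK1+ 5h replicate 1 on a slide of its own among them. Hprt, the locus that holds the cassette, was 2.73-fold higher with DOX at 5 h and 4.49- to 12.4-fold higher in the other 5 populations, with no overlap between arrays with and without DOX. Nothing states that replicates came from separate cultures, so p-values measure the spread between these arrays, which may be technical, and the number of arrays limits the precision. RNA was measured in bulk, so more globin-making cells and more globin RNA per cell cannot be told apart. Hbb-bh1 was well above background on all 27 arrays, Hbb-y and Hba-a1 on 26 and Hba-x on 20.

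In FLK1+ cells Hbb-y, Hbb-bh1 and Hba-a1 had their lowest group mean, while Hba-x was below background in FLK1+ cells and at 5 h alike and has no order among them. Hba-x read -5.58 and -5.92 on the 2 FLK1+ arrays, -5.36 and -5.50 at 5 h, and was not well above background on any of them. Hbb-y read -3.68 and -4.94 in FLK1+ cells, the second not well above background, and -3.95 and -3.50 at 5 h. Hbb-bh1 read -0.47 and -1.26 in FLK1+ cells and -0.54 and -0.43 at 5 h. These values left the FLK1+ and 5 h groups within 1 unit of each other for each gene. Hba-a1 read -2.84 and -3.83 in FLK1+ cells, the second not well above background, and -2.84 and -3.33 at 5 h. Between FLK1+ and FLK1+ 5h the limma model called none of the 3 genes tested, where it called 2.86% of 22652 genes higher and 3610 genes had an unadjusted p under 0.05. Hba-x could not be tested there because neither group was above background throughout.

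After 24 h of blast culture the signals of all 4 genes were higher on both d1 BC arrays than on both 5 h arrays. Hbb-bh1 read 4.11 and 6.07 in d1 BC, and its rise of 5.58 (SE 0.88), 47.7-fold, passed the test with an adjusted p of 0.00275. Background for this step was 0.726% of 23427 genes called higher and 22.5% with all d1 BC arrays above all 5 h arrays. On the slide that held 1 array of each group the difference of Hbb-bh1 was 6.50, and with the slide in the model it was 6.31. Without FLK1+ 5h replicate 1 the adjusted p was 0.0598, without d1 BC replicate 2 it was 0.111, and with the 2 groups alone it was 0.0905. The difference was 4.59 without d1 BC replicate 2 and 6.56 without d1 BC replicate 1. The embryonic alpha-type gene Hba-x came above background, at -3.02 and 0.34. That is at least 15.4-fold over 5 h, with an adjusted p of 0.42, and at least 4.81-fold without d1 BC replicate 2. With the normexp background correction and the authors' processed values the difference was smaller, 1.94 and 2.05. Hbb-y read -2.24 and 0.64, a difference of 2.93 (SE 1.17) with an adjusted p of 0.32. Hba-a1 read -1.97 and 0.07, a difference of 2.13 (SE 1.46) with an adjusted p of 0.679. In each case the d1 BC array on the slide shared with 5 h read higher than the other d1 BC array, so the spread between the d1 BC arrays was large beside the differences.

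**Figure D1:**
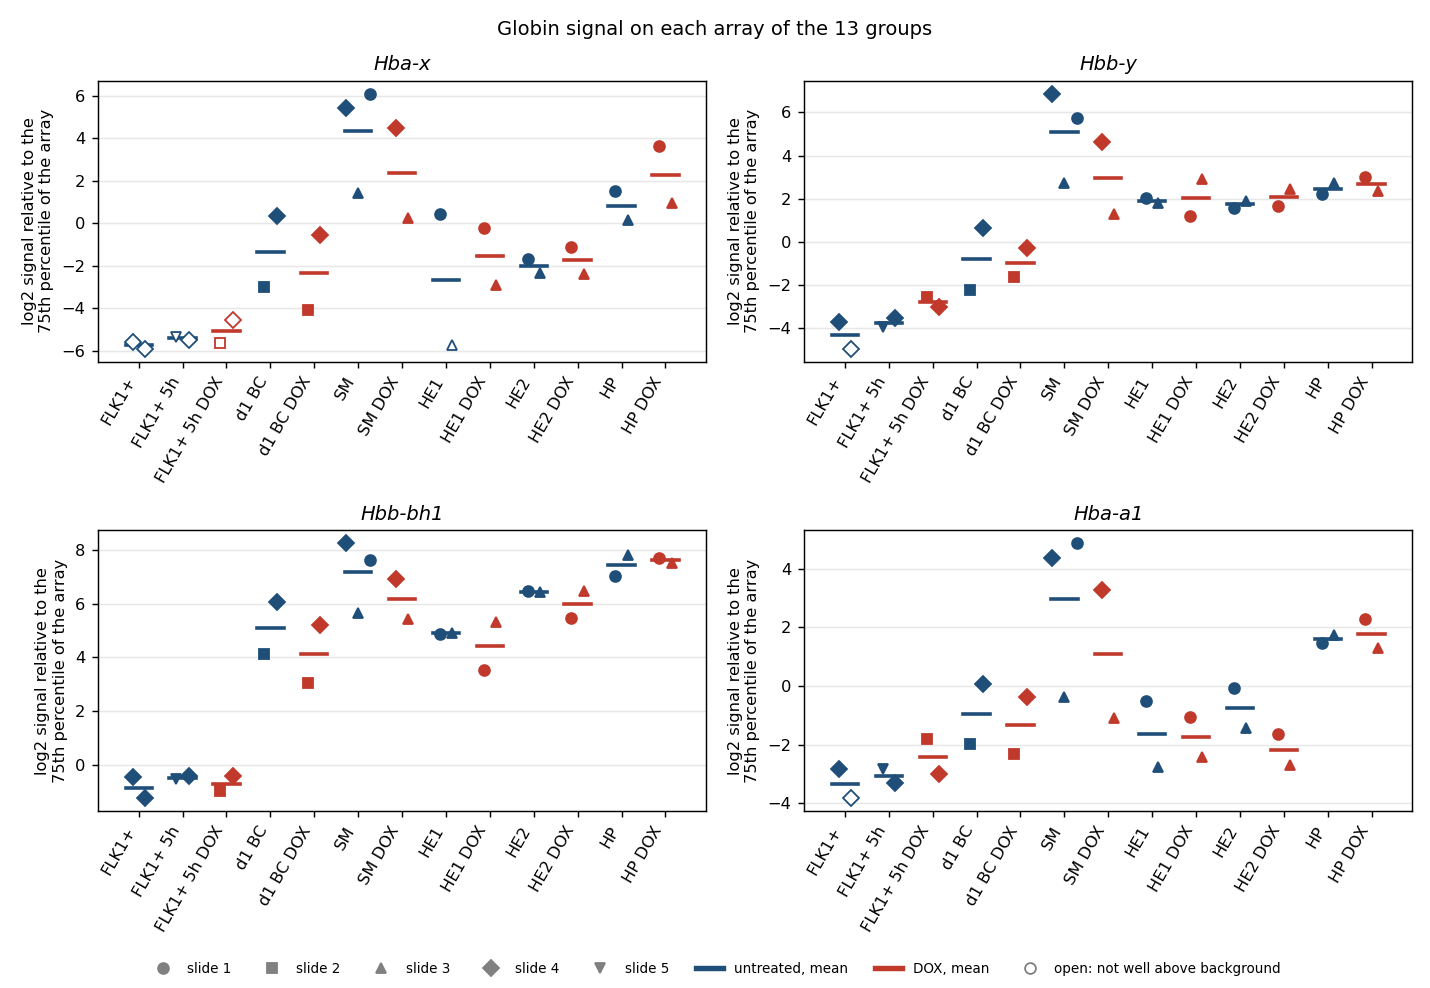
Signal of each gene on each of the 27 arrays (points; shape gives the slide, open points were not well above background) as log2 relative to the 75th percentile of the array, with the group mean as a bar, for untreated (blue) and DOX (red) groups. Hbb-y, Hbb-bh1 and Hba-a1 were lowest in FLK1+ cells, Hba-x was not well above background on any FLK1+ or 5 h array, and in SM the array on slide 3 sat below the other untreated SM arrays, at 1.42 against 5.44 and 6.09 for Hba-x.

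The highest group means of Hba-x, Hbb-y and Hba-a1 were in untreated SM. Hba-x read 5.44, 1.42 and 6.09 on the 3 SM arrays, against -3.02 and 0.34 in d1 BC, a difference of 5.66 (SE 1.72) with an adjusted p of 0.274. Hbb-y read 6.86, 2.74 and 5.74, and its rise of 5.91 (SE 1.07), 60.1-fold, passed the test with an adjusted p of 0.0201. Hba-a1 read 4.36, -0.37 and 4.87, a difference of 3.90 (SE 1.33) with an adjusted p of 0.407. Hbb-bh1 read 8.25, 5.63 and 7.63, a difference of 2.08 (SE 0.80) with an adjusted p of 0.543. Every gene was lowest on SM replicate 2, and only for Hba-x and Hbb-y did that array still lie above both d1 BC arrays. Background for this step was 0.243% of 23069 genes called higher and 13.4% with every SM array above both d1 BC arrays. The slide that held 1 array of each group gave differences of 5.10 for Hba-x, 6.22 for Hbb-y, 2.18 for Hbb-bh1 and 4.29 for Hba-a1. The rise of Hbb-y was 4.47 without d1 BC replicate 1 and 7.35 without d1 BC replicate 2. Its call was lost without d1 BC replicate 1 (adjusted p 0.39), SM replicate 1 (0.0854) or SM replicate 3 (0.102), and also with median scaling (0.122), a replicate block (0.12) or the groups alone (0.519). Without SM replicate 2 Hba-a1 was called as well, with a difference of 5.56 and an adjusted p of 0.0412.

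The labelled smooth muscle cells were checked against marker genes. The 7 smooth muscle markers, among them Acta2 and Tagln, were above background on every SM array, with a summed level of 819 to 1740 times the 75th percentile, against 924 to 1460 in d1 BC and 50.2 to 227 in HP, so that SM and d1 BC overlapped. The 7 markers of fibroblasts, which also mark feeder cells, were all higher in SM than in d1 BC, with a median of 3.70 and a summed level of 114 to 172 against 27.4 to 29.6. Among them 4 did not overlap, where 13.4% of all genes tested were higher without overlap. The collagen gene Col1a2 alone was called, at 3.89 (adjusted p 0.00479), where 0.243% of all genes tested were called higher. All 7 erythroid markers were above background in SM too. The summed erythroid level was 8.05 to 11.7 in SM, 3.33 to 4.58 in d1 BC and 8.68 to 10.1 in HP. It was 7.37 to 9.7 in HE1 and 6.0 to 8.51 in HE2, so that SM overlapped with HE1, HE2 and HP. On HE1 replicate 2 it was 9.7, while Hba-x was not well above background there. SM replicate 2, the SM array with the lowest globin signals, had the lowest erythroid sum of the 3 untreated SM arrays, 8.05. It also had the highest endothelial sum (64.9 against 13.8 and 11.6) and the highest hematopoietic progenitor sum (22.3 against 6.79 and 7.28). Its share of probes well above background, 89.7%, was the largest of all arrays. The part of other cell types in the globin signal of SM was not tested.

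In the hemogenic endothelium the replicates of each beta-type gene lay close together. Hbb-y read 2.02 and 1.79 in HE1 and 1.58 and 1.90 in HE2, all above the d1 BC arrays. Hbb-bh1 read 4.87 and 4.91 in HE1, between the d1 BC arrays, and 6.47 and 6.41 in HE2. The alpha-type genes varied more between arrays of a group. Hba-x read 0.41 on HE1 replicate 1 and -5.76, not well above background, on HE1 replicate 2, then -1.70 and -2.35 in HE2. Hba-a1 read -0.52 and -2.77 in HE1 and -0.08 and -1.45 in HE2. From d1 BC to HE1 none of the 4 genes passed the test, where 2.15% of 23537 genes were called higher, and 4262 genes had an unadjusted p under 0.05. The largest value was that of Hbb-y, 2.70 (SE 1.17, adjusted p 0.229), and 30.4% of genes tested had both HE1 arrays above both d1 BC arrays. None passed from HE1 to HE2, where 0.636% of 23434 genes were called higher and 2347 had an unadjusted p under 0.05. There both HE2 arrays of Hbb-bh1 lay above both HE1 arrays, as for 17.0% of all genes tested, with a difference of 1.55 (SE 0.88, adjusted p 0.669), and within the 2 slides it was 1.60 and 1.501. Hba-x differed by -2.11 on the slide where both its arrays were above background.

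In HP, progenitors that have left the endothelium, every gene lay above both HE2 arrays. Hba-x read 1.502 and 0.14, Hbb-y 2.20 and 2.75, Hbb-bh1 7.02 and 7.83, and Hba-a1 1.46 and 1.72. The differences from HE2 were 2.85 (SE 1.88), 0.74 (SE 1.17), 0.98 (SE 0.88) and 2.36 (SE 1.46) in that order. None passed the test, with adjusted p from 0.796 to 0.928, where 0.00395% of 25325 genes were called higher and 1644 had an unadjusted p under 0.05. Such separation of the groups was seen for 15.0% of all genes tested. Both slides gave a positive difference for every gene, from 0.55 to 3.20 on the first and from 0.85 to 3.17 on the other. From HE1 to HP none passed either, where 1.89% of 25026 genes were called higher and 3641 had an unadjusted p under 0.05. With the slide in the model as a fixed block Hbb-bh1 did, at 2.53 (adjusted p 0.0271). Hba-x passed there too (adjusted p 0.0497), but 1 of its HE1 arrays was not above background, its slides gave 1.09 and 5.90, the second against that array, and it ran from 0.41 to 6.58 in the unblocked model as single arrays were left out.

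**Figure D2:**
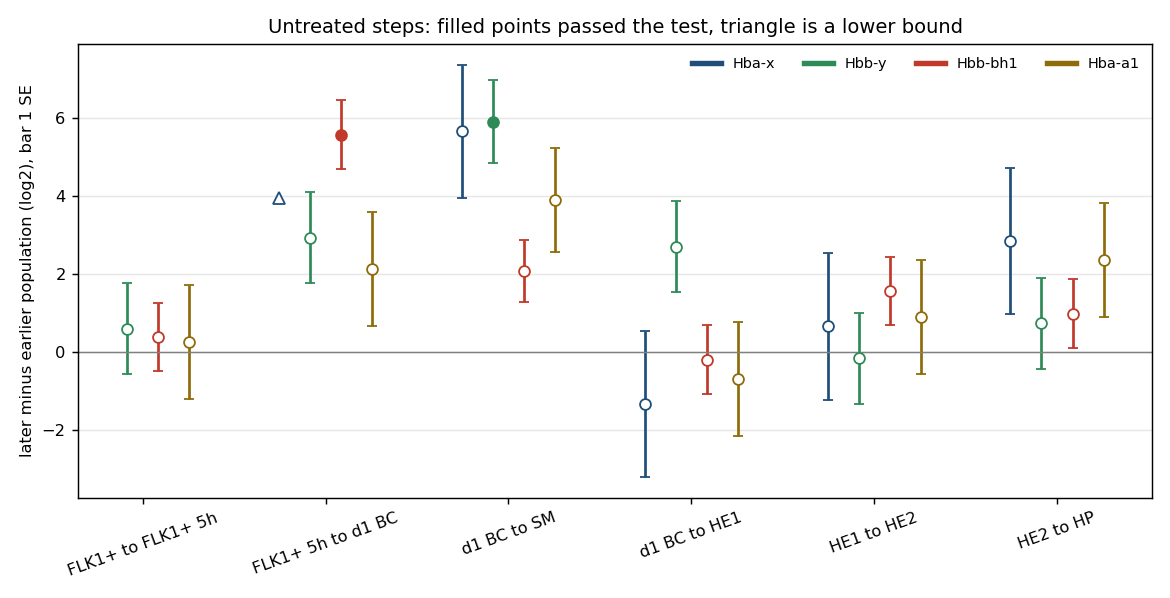
Differences between successive untreated populations (log2, points with bars of 1 SE from the limma model), coloured by gene, with filled points for those that passed the test; HE1 and SM are both set against d1 BC, and the triangle is the lower bound for Hba-x over 5 h, where it was below background. The filled points are Hbb-bh1 from FLK1+ 5h to d1 BC at 5.58 and Hbb-y from d1 BC to SM at 5.91.

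From the FLK1+ start to HP all 4 genes passed the test. The rise was 8.29 (SE 0.88), 312-fold, for Hbb-bh1, with an adjusted p of 3.24e-06, and 6.79 (SE 1.17) for Hbb-y, with an adjusted p of 0.000534. One of the FLK1+ arrays of Hbb-y was not well above background, and with that array at its floor the rise was 6.27, or 77.1-fold. Hba-x was at least 37.6-fold higher in HP (adjusted p 0.0264), a bound because FLK1+ cells were not above background. Hba-a1 rose by 4.93 (SE 1.46), 30.4-fold, with an adjusted p of 0.0325. Background for this step was 6.39% of 25022 genes called higher, and for 36.2% both HP arrays lay above both FLK1+ arrays, as for all 4 globin genes. Leaving out any 1 of the 4 FLK1+ and HP arrays removed the calls of Hba-x (adjusted p 0.0758 to 0.19) and Hba-a1 (0.0992 to 0.185). Both calls were also lost with the normexp background correction, quantile normalization or the authors' processed values (adjusted p 0.0566 to 0.112), and that of Hba-a1 with median scaling (0.0811) or no filter on dim probes (0.0503). The size of the change depended on the processing for the genes dim in FLK1+ cells. With normexp and with the authors' values the difference was 3.52 and 4.57 for Hba-x, both under the 5.23 of its bound, 4.73 and 5.24 for Hbb-y, 3.42 and 3.84 for Hba-a1, and 8.02 and 8.57 for Hbb-bh1. The FLK1+ and HP arrays shared no slide, and with the slide as a block all 4 calls held (adjusted p 3.12e-05 to 0.00371), with differences of 9.70 for Hbb-y, 9.90 for Hbb-bh1 and 7.63 for Hba-a1. SM and SM with DOX were the only groups with arrays both on the slide of FLK1+ and on those of HP. The blocked differences therefore rest on the SM arrays.

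In the order of the 13 group means, SM led for Hba-x, Hbb-y and Hba-a1, and HP with DOX, HP and SM led for Hbb-bh1. The order of SM and HP turned with the slide for Hbb-y, Hbb-bh1 and Hba-a1. HP minus SM was -3.54, -0.61 and -3.41 in that order on slide 1 and 0.012, 2.20 and 2.09 on slide 3, which held SM replicate 2. For Hba-x it was -4.58 and -1.28. Hbb-bh1, which was above background on every array, spanned 8.48 from the lowest group to the highest. Few neighbours in these orders were apart beyond the range of their arrays. For Hba-a1 none of the 12 neighbouring pairs was apart. For Hba-x none was among the groups with an array above background. For Hbb-bh1 1 was, d1 BC with DOX over FLK1+ 5h, by 4.62. For Hbb-y 3 were: HE2 over d1 BC by 2.53, d1 BC with DOX over FLK1+ 5h with DOX by 1.83, and FLK1+ 5h with DOX over FLK1+ 5h by 0.94. The pooled SD within groups was 2.11 for Hba-x, 1.63 for Hba-a1, 1.28 for Hbb-y and 0.93 for Hbb-bh1, against a median of 0.73 over all genes. The alpha-type genes thus stood at the 98.9 and 97.2 percentiles of within-group spread.

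The adult gene Hba-a1 was set against the embryonic gene Hba-x within each array, where scaling cancels and only a difference between changes can be read. From d1 BC to SM the change of Hba-a1 was 1.75 below that of Hba-x (-1.75, exact permutation p = 0.2, two-sided, the smallest that 2 against 3 arrays allow). From SM to HP it was 2.13 above it (exact permutation p = 0.2). From HE2 to HP it was -0.49 (exact permutation p = 0.667, smallest possible 0.333). With DOX it was 0.09 in SM (exact permutation p = 1.0) and -1.28 in HP (exact permutation p = 0.667). The values are descriptions, as an exact permutation over this many arrays cannot bring p under 0.05.

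None of the genes was called with DOX in any of the 6 populations, with Hba-x not tested at 5 h. In SM with DOX, Hba-x read 4.48 and 0.25, Hbb-y 4.65 and 1.30, Hbb-bh1 6.91 and 5.41, and Hba-a1 3.29 and -1.11. All 4 means lay below untreated SM, but the arrays overlapped. The differences were -1.95 (SE 1.72, 95% interval -5.55 to 1.65) for Hba-x, -2.14 (SE 1.07, -4.38 to 0.10) for Hbb-y, -1.01 (SE 0.80, -2.69 to 0.67) for Hbb-bh1 and -1.86 (SE 1.33, -4.66 to 0.94) for Hba-a1. All had an adjusted p of 0.996, where 0.021% of 23784 genes were called and 657 had an unadjusted p under 0.05. These intervals include no difference as well as decreases of several fold. They carry the spread between slides, because the model had no slide term. Untreated SM replicate 3, at 6.09 for Hba-x and 4.87 for Hba-a1, entered the model but had no SM DOX array on its slide. Within the 2 slides that held both an untreated and a DOX array, Hba-x differed by -0.96 and -1.17, Hbb-y by -2.21 and -1.44, Hbb-bh1 by -1.34 and -0.22, and Hba-a1 by -1.07 and -0.74, so that each gene was lower with DOX on both slides. Without SM DOX replicate 2 the values of Hba-x and Hba-a1 changed sign, to 0.16 and 0.34. Beside this, 6 of the 7 erythroid markers were lower in SM with DOX and 0 were called, with a median of -0.41 and a summed level of 6.89 to 8.25 against 8.05 to 11.7. Within slides the erythroid sum was 6.89 with DOX against 9.36 on slide 4, and 8.25 against 8.05 on slide 3. Unlike the globin signals, it was thus not lower with DOX on both slides. Markers of the other lists went both ways, with 0 called. The smooth muscle markers were lower in 5 of 7, with a median of -0.29, and the endothelial markers higher in 5 of 7, with a median of 0.33. Of 7 hematopoietic progenitor markers 6 were lower, with a median of -0.81. The 4 myeloid markers tested had a median of -1.24, 2 of them lower without overlap, where 6.06% of all genes tested were. Summed levels did not overlap for myeloid markers (10.6 to 12.0 with DOX against 18.3 to 34.3) or fibroblast markers (67.0 to 91.3 against 114 to 172). The part of any of these cell types in the lower globin signals was not tested.

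In HP with DOX, Hba-x read 3.63 and 0.94, Hbb-y 3.01 and 2.36, Hbb-bh1 7.71 and 7.53, and Hba-a1 2.27 and 1.29. The differences from untreated HP were 1.46 (SE 1.88, 95% interval -2.48 to 5.41) for Hba-x, 0.21 (SE 1.17, -2.24 to 2.66) for Hbb-y, 0.19 (SE 0.88, -1.65 to 2.03) for Hbb-bh1 and 0.19 (SE 1.46, -2.88 to 3.25) for Hba-a1. The groups overlapped for each gene and none was called, with adjusted p from 0.982 to 0.989, where 0.0398% of 25096 genes were called and 956 had an unadjusted p under 0.05. Only Hba-x was higher on both slides, by 2.13 and 0.80, and its value ran from 0.12 to 2.81 as single arrays were left out, while the sign of the other 3 genes turned with median scaling. The 6 erythroid markers tested were all higher with DOX and 0 were called. Of these 4 did not overlap, where 28.1% of all genes tested were higher without overlap, and the summed erythroid level was 19.2 to 21.1 against 8.68 to 10.1. All 7 megakaryocyte markers were higher too, 5 without overlap. Of 7 myeloid markers 5 were lower without overlap, where 11.8% of all genes tested were, with a median of -2.51, although their summed level was 98.5 to 131 against 92.7 to 105. The part of these cell types in the globin values was not tested.

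Whole cultures were measured at 5 h and 24 h. In FLK1+ 5h, Hbb-y read -2.57 and -2.996 with DOX, above both untreated arrays, as for 19.4% of all genes tested, by a mean of 0.94 (SE 1.17), Hbb-bh1 read -1.003 and -0.41, and Hba-a1 read -1.83 and -3.01. Hba-x, at -5.66 and -4.55, was not above background there. None of the 3 genes tested was called, where 0.00421% of 23747 genes were and 1308 had an unadjusted p under 0.05. In d1 BC with DOX, Hba-x read -4.11 and -0.55, Hbb-y -1.63 and -0.26, Hbb-bh1 3.05 and 5.21, and Hba-a1 -2.32 and -0.37. None was called, where 0.0% of 23945 genes were and 379 had an unadjusted p under 0.05. Hbb-bh1 was lower with DOX within both slides, by -1.05 and -0.86. The alpha-type genes were too, but with the normexp correction Hba-x differed by -0.015 and Hba-a1 by 0.17 on the first of them.

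The hemogenic endothelium was sorted into HE1 and HE2. In HE1 with DOX, Hba-x read -0.22 and -2.91, Hbb-y 1.21 and 2.91, Hbb-bh1 3.52 and 5.33, and Hba-a1 -1.07 and -2.43. None was called, where 0.0% of 23183 genes were and 307 had an unadjusted p under 0.05. Hbb-y and Hbb-bh1 were lower on one slide and higher on the other. Hba-a1 was too (-0.54 and 0.35), but with the normexp correction it was lower on both (-0.23 and -0.34). For Hba-x the untreated array on the second slide was not above background. In HE2 with DOX, Hba-x read -1.13 and -2.38, Hbb-y 1.66 and 2.47, Hbb-bh1 5.45 and 6.48, and Hba-a1 -1.65 and -2.69. Both DOX arrays of Hba-a1 lay below both untreated HE2 arrays, as for 15.4% of all genes tested, by -1.57 and -1.25 within the slides and by -1.41 (SE 1.46, adjusted p 0.655) in the model. With the normexp correction Hba-a1 differed by -1.07 and -0.44 within the slides. None was called, where 0.00416% of 24067 genes were and 2267 had an unadjusted p under 0.05. Averaged over SM, HE1, HE2 and HP, the DOX effect was 0.23 (SE 0.92) for Hba-x, -0.36 (SE 0.57) for Hbb-y, -0.44 (SE 0.43) for Hbb-bh1 and -0.79 (SE 0.71) for Hba-a1, none called, with the sign of Hba-x turned under the normexp background correction, where 0.431% of 27363 genes were and 3511 had an unadjusted p under 0.05.

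**Figure D3:**
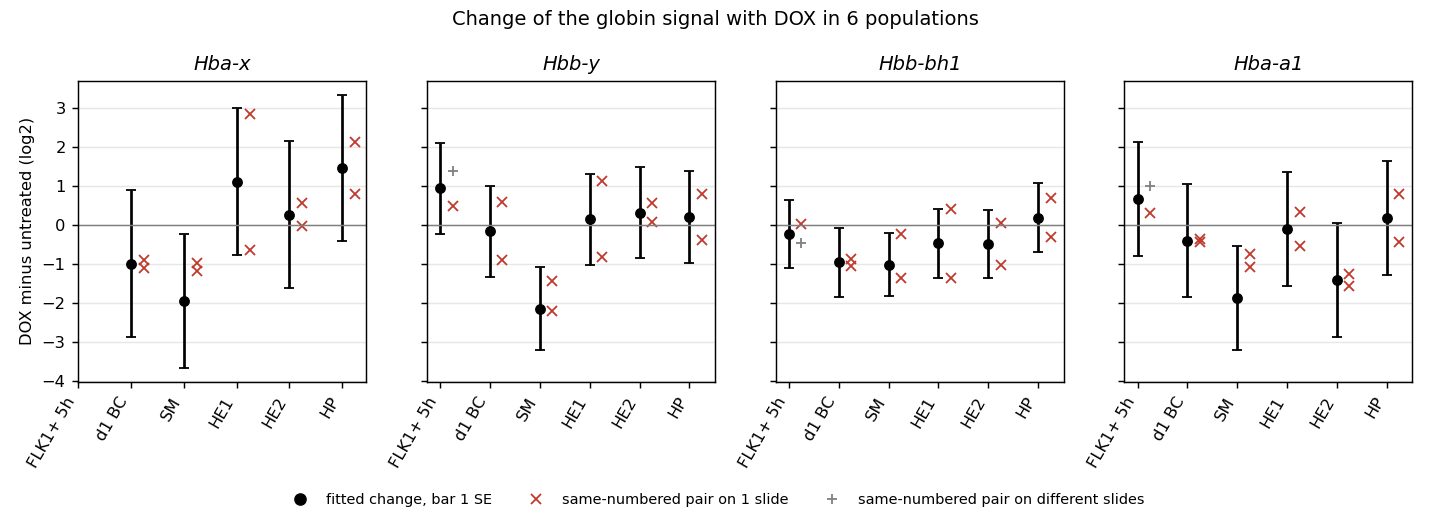
Difference between DOX and untreated arrays (log2) for each gene in 6 populations, as the fitted change with a bar of 1 SE (black) and as the difference of same-numbered arrays on 1 slide (crosses) or on different slides (plus signs); Hba-x at 5 h is left out because it was not above background. In SM both crosses lie below 0 for every gene, from -2.21 to -0.22, and none of the changes passed the test.

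The difference between DOX effects was tested in 5 pairs of populations and 0.0% of genes were called in each. Other settings called up to 8 genes for HP minus SM, up to 5 for HP minus HE2, and up to 2 for d1 BC minus FLK1+ 5h and 1 for HE2 minus HE1. HP minus SM was tested on 26455 genes, HP minus HE2 on 26084, HE1 minus SM on 25150, HE2 minus HE1 on 25188, and d1 BC minus FLK1+ 5h on 25352, with 613, 1163, 125, 340 and 374 of them at an unadjusted p under 0.05. For HP minus SM the values were 3.41 (SE 2.55) for Hba-x, 2.35 (SE 1.58) for Hbb-y, 1.21 (SE 1.19) for Hbb-bh1 and 2.05 (SE 1.98) for Hba-a1. All 4 had an adjusted p of 1.0, so lower means in SM and higher means in HP with DOX were not shown to differ.

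The 4 genes moved together across arrays, as a description over 27 arrays that share slides and scaling. After group means were removed, r was 0.91 between Hbb-y and Hbb-bh1, 0.86 between Hba-x and Hba-a1, 0.78 between Hbb-y and Hba-a1, and 0.63, 0.60 and 0.50 for Hbb-bh1 with Hba-a1, Hba-x with Hbb-y and Hba-x with Hbb-bh1. Genes most like each were sought among 16207 genes with a symbol by Pearson r over the 13 group means. For Hba-x they were Hba-a2 (0.983), Hba-a1 (0.956), Alas2 (0.938), the enzyme of the first step of heme synthesis in red cells, Lacc1 (0.907) and the kinase gene Akt1 (0.906). For Hba-a1 they included Hba-a2 (0.974), Hba-x (0.956), the urea transporter gene Slc14a1 (0.898) and Alas2 (0.869). For Hbb-y they were Rnf225 (0.962), the AP-1 gene Fosb (0.951), B4galt4 (0.928), Krtap12-1 (0.926) and Sox6 (0.926), a repressor of embryonic beta-type globin genes. For Hbb-bh1 they were Mbd2 (0.971), which encodes a protein that binds methylated DNA, Bace1 (0.953), Tspan4 (0.951), Mrvi1 (0.949) and Myo18a (0.947). Hbb-bh1 stood 12th for Hbb-y and Hbb-y 32nd for Hbb-bh1, each with an r of 0.914, but 1st and 5th over the 27 single arrays. The ranks depended on the use of group means. Over the 27 single arrays Alas2 stood 51st for Hba-x and 54th for Hba-a1, Akt1 772nd for Hba-x, Krtap12-1 431st and Rnf225 44th for Hbb-y, and Bace1 30th and Tspan4 25th for Hbb-bh1.

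Other genes of red cell formation were followed from FLK1+ to HP, the step on which all 4 globin genes passed. On this step 6.39% of all genes tested were called higher and 5.42% lower. A gene below background in FLK1+ cells was tested only if HP was above it, so the counts and medians of these lists lean towards higher values. Of 11 other globin genes 6 were tested, of which Hba-a2 and Cygb alone were above background on both FLK1+ arrays. Cygb, which encodes cytoglobin, differed by -0.15. The genes called higher were Hba-a2 by 5.74 (53.3-fold), the adult beta-type gene Hbb-bt by 5.65, with 1 of its FLK1+ arrays not above background, and Hbb-b2 by at least 9.65-fold. The median difference of all genes tested was 0.20, which median scaling of the arrays moved to -0.19. Of 18 regulators of globin genes, all tested, 9 were called higher against the same 6.39%, with a median of 1.99. Among them the repressor Gfi1b rose by 7.00, the erythroid and megakaryocytic factor Nfe2 by 6.88, the TAL1-related factor Lyl1 by 6.10 and the progenitor factor Myb by 5.99. From HE1 to HE2, where 0.636% of all genes tested were called higher, 3 regulators were: Gfi1b by 4.26, Myb by 4.20 and Nfe2 by 3.91. Of 13 genes of heme synthesis 0 were called, with a median of 0.15. Of 15 genes of the red cell membrane and iron uptake 13 were tested, with a median of 0.71, and 4 were called higher and 1 lower. Among those called, Gypc (glycophorin C) was 4.75 higher on the log2 scale, Epb42 at least 3.99-fold and Rhag at least 1.63-fold higher, while the transferrin receptor gene Tfrc fell by 1.87 on the log2 scale. The bound of Rhag is under the 2-fold threshold, so its call rests on FLK1+ signals that were below background. Of 7 genes that protect against free hemoglobin and oxidation 6 were tested, with a median of 0.71 and 1 called lower. Hmox1, which breaks down heme, fell by 1.72 on the log2 scale.

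**Figure D4:**
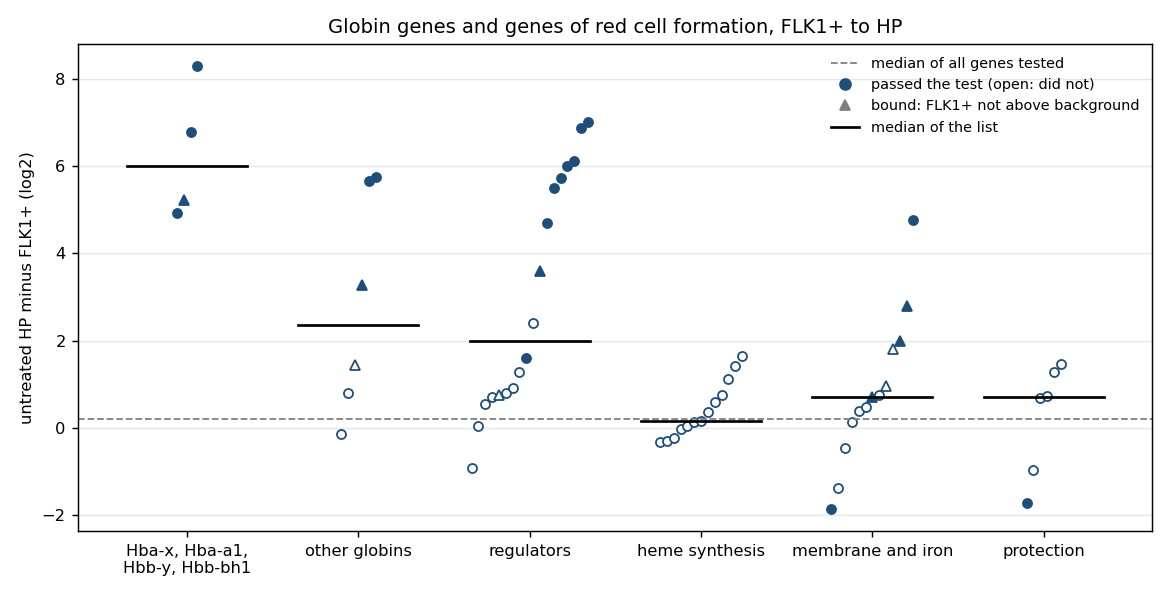
Difference between untreated HP and FLK1+ cells (log2) for the 4 globin genes and 5 lists of genes of red cell formation; filled points passed the test, triangles are lower bounds where FLK1+ cells were below background, bars are list medians and the dashed line is the median of all genes tested. The 4 globin genes lie between 4.93 and 8.29, and the heme synthesis genes have a median of 0.15 with no filled point.

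From d1 BC to SM, where the alpha-type genes and Hbb-y had their highest means, 0 genes of these lists were called. Of 7 other globin genes tested there, 4 were above background on both d1 BC arrays, and the others entered through SM. Hba-a2 read 4.42 higher (SE 1.06, adjusted p 0.125), Cygb 2.71, Hbb-b2 1.68 and Hbb-bt 0.53, the first 3 of them without overlap, where 13.4% of all genes tested were. Hbb-bs, not above background in d1 BC, was at least 4.26-fold higher (adjusted p 0.0785). Klf1, the erythroid factor that acts on CACCC sequences, ran from -2.48 to 0.08 in SM and was above background on 1 of the 2 d1 BC arrays (adjusted p 0.142). With DOX, 0 genes of the 5 lists were called in SM or HP. Other globin genes had a median DOX effect of -0.54 in SM, against 0.08 for all genes, with 6 of 8 lower, and of 0.21 in HP, against 0.29, with 4 of 6 higher, over genes that needed only 1 of the groups above background. Hba-a2 read 1.60 higher in HP with DOX without overlap (SE 1.16, adjusted p 0.982), where 28.1% of all genes tested were higher without overlap. The regulators had medians of 0.18 in SM and 0.37 in HP.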

How the data were processed

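RNA was hybridized to one-colour Agilent SurePrint G3 mouse arrays. The deposited spot values are an intensity, which the authors obtained with Agilent Feature Extraction (10.7.1.1 in the submitters' processing notes, 10.7.3.1 in the file headers), background-subtracted and detrended but not scaled between arrays. The authors also deposited log2 values normalized between arrays, used here as an alternative. Spots of a probe were averaged, the brightest probe of each gene was kept (Hbb-y has 2 probes, the other 3 genes 1 each), and each log2 value was taken relative to the array's 75th percentile. Gene names came from RefSeq (GRCm38.p6).

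Group means of 28296 genes, each well above background throughout at least 1 group, were fitted with limma 3.58.1 in R 4.3.3 on all 27 arrays (14 residual degrees of freedom). A gene entered a test if 1 of the groups compared had it above background throughout, and was called when its p, adjusted by Benjamini-Hochberg, was under 0.05 with a change of 2-fold or more. Where one group was never above background, the fold is a lower bound, taken on each of its arrays against the dimmest signal well above background, or the probe's own where higher. The model was tested on simulated data. From each gene list up to 4 called genes with the largest change are named, or, with none called, genes whose groups did not overlap. Likeness was ranked by r over group means. Some genes that these rules pick are not reported here. The genes and lists were chosen with earlier results of these data known, and GATA forms beyond AGATAA were added last.

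The alternatives were the normexp correction (offset 50), quantile and median scaling, the authors' processed values, other filters, all probes averaged, a replicate or slide block, a mean-variance trend, the groups alone, and each array left out. No DOX effect could be compared with DOX on cells that lack the cassette.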

Additional observations from a re-analysis of the deposited data

How the results depend on the processing

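Directions held under most settings. Of the globin results followed, the value was on the same side of 0 and of the threshold in 913 cases, changed sign in 69, lost its call in 28 and gained one in 5, and all sign changes were of values that had not passed the test. Leaving an array alone in its group assumes that it varies like the other groups.

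From FLK1+ to HP, 4 genes were called, and 2 with the normexp correction, quantile normalization or the authors' processed values, and in each fit without 1 array (2 to 2). When both groups had to be above background 1 was called, as only Hbb-bh1 is then tested. From FLK1+ 5h to d1 BC 1 gene was called, and 0 with the groups compared alone, with 0 to 1 over fits without 1 array (0 without FLK1+ 5h replicate 1 or d1 BC replicate 2). From d1 BC to SM 1 was called, 0 with median scaling or the groups alone, 2 with the slide as a random block and 0 to 2 without 1 array. From HE1 to HP 0 were called, 2 with the slide as a fixed block and 1 with it as a random block. The causes were not tested.

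With a replicate block, the rise of Hbb-y from d1 BC to SM was 5.59 with an adjusted p of 0.12, so 0 genes were called there, and no other call of the 4 genes changed. The deviations of same-numbered arrays with and without DOX correlated at -0.01 in FLK1+ 5h and at 0.25 to 0.81 elsewhere, and arrays of one number mostly share a slide, so the numbers were not taken as pairs. A replicate block within each population, added after seeing the data, called 0 of the 4 genes with DOX.

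Sign changes with the whole data were these. With DOX in FLK1+ 5h, Hbb-bh1 gave 0.51 and 0.10 with the slide as a fixed and a random block. In HE1, Hba-x gave -0.28 with normexp. There Hbb-y gave -0.12 with quantile normalization, -0.19 with the authors' values and -0.012 with all probes averaged, and Hba-a1 gave 0.30, 0.17 and 0.27 with quantile normalization, median scaling and the authors' values. In HE2, Hbb-bh1 gave 0.031 with median scaling. In HP, Hbb-y gave -0.0021 with normexp and -0.11 with median scaling, Hbb-bh1 gave -0.15, -0.13 and -0.27 with quantile normalization, median scaling and the authors' values, and Hba-a1 gave -0.13 with median scaling. Averaged over the 4 sorted populations, Hba-x gave -0.17 with normexp. From FLK1+ to FLK1+ 5h, Hbb-y gave -0.082 and Hba-a1 -0.18 with normexp. From d1 BC to HE1, Hba-x gave 0.28 with normexp, Hbb-bh1 gave 0.14, 0.18, 0.63 and 0.24 with quantile normalization, the authors' values and the slide as a fixed and a random block, and Hba-a1 gave 1.54 and 0.33 with those blocks. From HE1 to HE2, Hba-x gave -0.68 with normexp and -0.43 with the authors' values.

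Over the fits without 1 array the following also changed sign. With DOX in FLK1+ 5h, Hbb-bh1 ran from -0.52 to 0.076. With DOX in d1 BC, Hba-x ran from -2.77 to 0.80, Hbb-y ran from -1.59 to 1.29, Hbb-bh1 ran from -2.04 to 0.12 and Hba-a1 ran from -1.41 to 0.62. With DOX in SM, Hba-x ran from -4.06 to 0.16 and Hba-a1 ran from -4.06 to 0.34. With DOX in HE1, Hba-x ran from -1.97 to 4.20, Hbb-y ran from -0.70 to 1.01, Hbb-bh1 ran from -1.37 to 0.44 and Hba-a1 ran from -1.22 to 1.03. With DOX in HE2, Hba-x ran from -0.35 to 0.90, Hbb-y ran from -0.079 to 0.73 and Hbb-bh1 ran from -0.99 to 0.036. With DOX in HP, Hbb-y ran from -0.12 to 0.53, Hbb-bh1 ran from -0.21 to 0.60 and Hba-a1 ran from -0.30 to 0.68. Averaged over the sorted populations, Hba-x ran from -0.55 to 1.00 and Hbb-y ran from -0.78 to 0.055. From FLK1+ to FLK1+ 5h, Hbb-y ran from -0.046 to 1.22, Hbb-bh1 ran from -0.013 to 0.77 and Hba-a1 ran from -0.24 to 0.75. From d1 BC to HE1, Hba-x ran from -4.42 to 1.75, Hbb-bh1 ran from -1.18 to 0.78 and Hba-a1 ran from -1.82 to 0.43. From HE1 to HE2, Hba-x ran from -2.44 to 3.73 and Hba-a1 ran from -0.24 to 2.01.

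Median scaling moved the median difference of all genes from 0.20 to -0.19 for FLK1+ to HP and from 0.02 to -0.43 for d1 BC to SM, so levels across these steps depend on the scaling. Among genes called, the share called higher was 54.1% for FLK1+ to HP and 41.2% with median scaling, 90.3% for d1 BC to SM and 66.7 to 68.3% with the other scalings and 71.4% with normexp, 42.1% for FLK1+ 5h to d1 BC and 19.8% with median scaling, 58.6% for d1 BC to HE1 and 31.8% with median scaling, 23.3% for HE1 to HE2 and 39.6% with median scaling, and 39.9% for HE1 to HP and 70.2% with median scaling. Counts over all genes moved by more than 1.5 times: from 2953 to 1516 and 4751 for FLK1+ to HP, 728 to 64 and 1578 for FLK1+ to FLK1+ 5h, 404 to 0 and 764 for FLK1+ 5h to d1 BC, 62 to 0 and 225 for d1 BC to SM, 862 to 0 and 1467 for d1 BC to HE1, 639 to 0 and 1664 for HE1 to HE2, 1 to 0 and 165 for HE2 to HP, and 1186 to 415 and 3073 for HE1 to HP. With DOX they moved from 1 to 0 and 112 at 5 h, 0 to 4 in d1 BC, 5 to 0 and 19 in SM, 0 to 1 in HE1, 1 to 0 and 74 in HE2, 10 to 0 and 128 in HP, and 118 to 30 and 571 over the sorted populations. Differences between DOX effects moved from 0 to 8 for HP minus SM, 5 for HP minus HE2, 2 for d1 BC minus FLK1+ 5h and 1 for HE2 minus HE1. Signals below background limit Hba-x, which had only a bound on 7 of the 27 arrays.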
